A study of Homo sapiens with 6 samples.

Results

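The nuclear genes for the protein components of the mitochondrial ribosome were followed in the established human embryonic stem cell line H9, treated with an inhibitor of Polycomb repressive complex 2 or with its low-activity analog. The members were all rows of the deposited count table named MRPL or MRPS with a number and at most one of the letters A, B or C. This rule found 76 of 53712 gene names, 47 named for the large and 29 for the small subunit. One group received UNC1999 at 2.5 µM, which inhibits the histone H3 lysine methyltransferases EZH2 and EZH1. The other group received UNC2400 at 2.5 µM, an analog that has low activity against these enzymes. Both groups were kept in RSeT, which is sold for growing human stem cells in a naive-type state. Both also carried 2 further agents, the S-adenosylhomocysteine hydrolase inhibitor DZNep at 10 nM and the histone deacetylase inhibitor TSA (trichostatin A) at 5 nM. The agents were added 24 h after passage, and RNA was taken 48 h later. Each compound had 3 libraries, and no group went without a compound, so each value below is UNC1999 set against UNC2400 on top of DZNep and TSA.

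The mitochondrial ribosome translates the few mRNAs that the mitochondrial genome encodes, all of them for subunits of the oxidative phosphorylation complexes. Its proteins are encoded in the nucleus, made on cytosolic ribosomes and imported, and many have no counterpart in bacteria. Its RNA core, in contrast, is transcribed inside the organelle. Pluripotent stem cells rely strongly on glycolysis, and naive-type cells are known for a more active mitochondrial metabolism than primed cells.

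Poly(A)-selected, strand-marking libraries held 33522942 to 34481593 counts for UNC1999 and 29699441 to 42345448 for UNC2400, so a count of 0 allowed up to 0.0708 to 0.101 CPM (counts scaled to library size) per library, counting error only. All 10 pluripotency markers were at or above a mean of 1 CPM. Their summed level was 7382 to 8280 CPM in UNC1999 and 8952 to 9079 CPM in UNC2400 libraries, and 6 of the 10 were lower. Of 8 naive markers 7 reached 1 CPM; KLF17 was at 0.271 CPM. Of the 7 tested, 5 were higher, among them DNMT3L by 1.73, KLF4 by 0.62 and KLF5 by 0.51 on the log2 scale. The 2 lower were SUSD2 at −0.41 and DPPA5 at −0.28. The 8 summed to 219 to 235 CPM in UNC1999 and 216 to 227 CPM in UNC2400 libraries. Of 10 feeder or fibroblast markers 5 reached 1 CPM, and the 10 together summed to 183 to 198 CPM in UNC1999 and 272 to 303 CPM in UNC2400 libraries. The lowest of the 10, LUM, was at 0.00484 CPM, and of 6 tested 1 was higher and 4 lower. Of 5 neural markers 3 were tested and NES was higher by 0.89, with sums of 753 to 776 CPM in UNC1999 and 571 to 595 CPM in UNC2400 libraries. Of 6 mesendoderm markers 3 were tested, and GATA4 (1.37) and MIXL1 (0.31) were higher, with sums of 8.18 to 11.0 CPM in UNC1999 and 6.01 to 8.28 CPM in UNC2400 libraries. Of 6 trophoblast markers 3 were tested and none passed, with sums of 52.0 to 54.3 CPM in UNC1999 and 49.4 to 51.3 CPM in UNC2400 libraries. The part of such cells, or of a change in cell state, in the differences below was not tested. In bulk samples a change in the mix of cells and a change in RNA per cell cannot be told apart.

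Mitochondrial ribosomal protein mRNAs were mostly a little higher with UNC1999. Of the 75 members tested, 43 were higher and 1, MRPS9, was lower, while 31 did not pass (edgeR quasi-likelihood test, adjusted p under 0.05 over all 17596 genes tested). Of all genes tested, 52.7% passed by the same rule, 26.8% higher and 25.9% lower. The median log2 fold change was 0.20 over the members and 0.02 over all genes, with 62 members above zero and 13 below. The changes were small. Among genes past the threshold the median absolute log2 fold change was 0.25 for the members and 0.42 for all genes, and no member differed by more than 1 on the log2 scale. The 3 UNC1999 libraries all lay above the 3 UNC2400 libraries for 46 members and all below them for 2, against 30.9% and 29.7% of all genes. Without UNC1999 replicate 3, the highest library in the member sum, 31 members were higher. In that fit 3642 of 18027 genes tested were higher, against 4714 of 17596 with all libraries. The members that lost the call were MRPL14, MRPL32, MRPL36, MRPL43, MRPL48, MRPL49, MRPL50, MRPL51, MRPS7, MRPS17, MRPS18A and MRPS23. In the authors' deposited table, which holds 75 of the members, 40 were higher and 1 lower, against 21.3% and 22.7% of its genes.

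**Figure D1:**
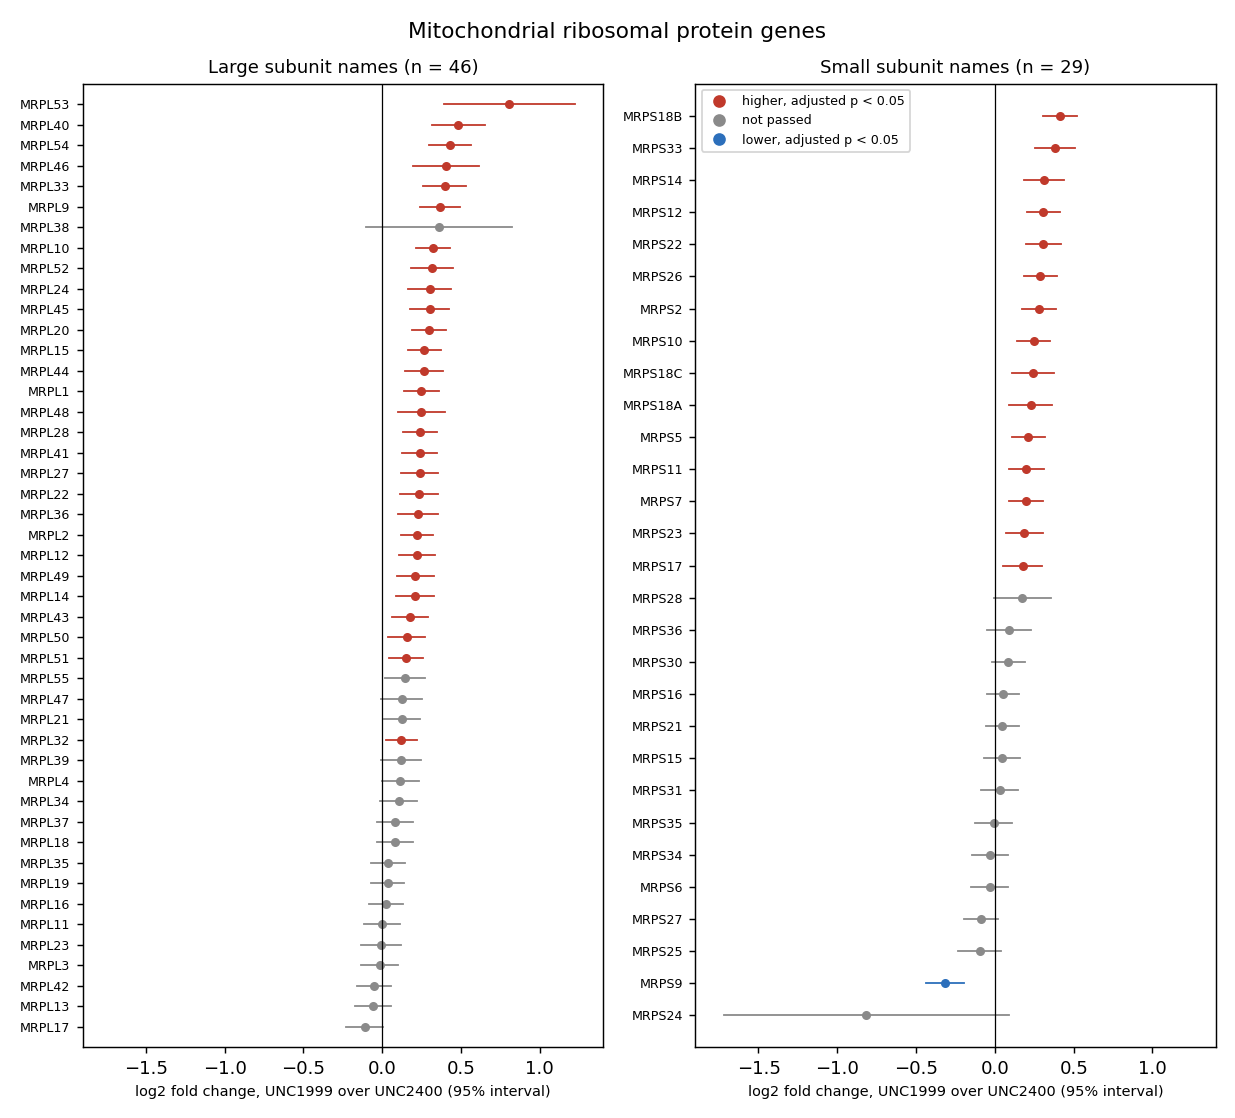
Log2 fold change of UNC1999 over UNC2400 (horizontal axis) for the 46 large-subunit and 29 small-subunit names tested, ordered by value; points are edgeR estimates, bars 95% intervals, and color gives the call. Most points lie between 0 and 0.5, MRPS9 is the only member called lower, and the widest bars belong to the low-count members MRPS24, MRPL38 and MRPL53.

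The shift was present in each library. TMM-scaled CPM summed over the members came to 5620, 5378 and 5703 in UNC1999 libraries, against 4962, 5150 and 5095 in UNC2400 libraries. The means were 5567 ± 169 CPM with UNC1999 and 5069 ± 96.4 CPM with UNC2400 (SD, n = 3 each), a ratio of 1.10. No UNC1999 library fell within the UNC2400 range, the closest being UNC1999 replicate 2 and UNC2400 replicate 2. The large-subunit sum was 3477 ± 118 CPM with UNC1999 and 3130 ± 73.2 CPM with UNC2400, and the small-subunit sum was 2090 ± 51.7 CPM with UNC1999 and 1939 ± 24.4 CPM with UNC2400 (SD, n = 3 each). The ratio of large to small sums was 1.66, 1.65 and 1.68 in UNC1999 and 1.60, 1.64 and 1.61 in UNC2400 libraries, a 1.03-fold difference between the group means.

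Promoter sequences are shown because most members were higher and because nuclear genes for mitochondrial proteins are known to be driven by GABP, an ETS-family factor also called NRF2, by NRF1 and by YY1. RefSeq promoter windows (GRCh38.p14, 250 bases before to 50 after each annotated start) were matched by symbol to 67 of the 76 members, which have 83 windows. Each motif was searched on both strands. The ETS-type motif CCGGAAG stood in 38.6% of the members' windows, in 14.9% of the windows of tested genes and in 10.3% of all 35116 windows. Counted by gene, the motif stood in 43.3% of the 67 members and 20.1% of the 11158 tested genes with a window. It stood in 42.9% of the windows of members called higher and 31.2% of those of members that did not pass. The YY1 motif AAGATGGCG stood in 15.7% of members' windows, against 2.97% for tested genes and 1.75% for all. The NRF1 core CGCATGCG stood in 3.61%, against 2.92% and 2.02%, and with 1 base open (CGCNTGCG, which includes the core) in 18.1%, against 15.1% and 10.0%. The E-box CACGTG stood in 10.8%, against 8.96% and 7.26%, and the TATA box TATAAA in 3.61%, against 6.64% and 11.5%. Capitals mark the motif in the stretches of 60 bases below, each ending 0 to 8 bases before the annotated start and read on the gene's strand. The first 4 belong to members that were higher, the next 2 to members high in CPM that did not pass, then come MRPL17, which holds the NRF1 core and did not pass, and MRPS9, which was lower and holds the NRF1 motif with the open base.
MRPL40 (chr22:19432485-19432544, plus strand): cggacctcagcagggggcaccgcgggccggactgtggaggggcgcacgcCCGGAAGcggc
MRPL54 (chr19:3762622-3762681, plus strand): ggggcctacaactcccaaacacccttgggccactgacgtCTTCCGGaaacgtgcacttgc
MRPS12 (chr19:38930894-38930953, plus strand): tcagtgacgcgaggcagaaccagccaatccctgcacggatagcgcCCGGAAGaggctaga
MRPS26 (chr20:3045989-3046048, plus strand): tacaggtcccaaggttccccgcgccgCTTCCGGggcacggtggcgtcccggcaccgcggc
MRPS34 (chr16:1773135-1773194, minus strand): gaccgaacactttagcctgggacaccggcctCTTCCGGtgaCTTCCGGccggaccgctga
MRPL3 (chr3:131502972-131503031, minus strand): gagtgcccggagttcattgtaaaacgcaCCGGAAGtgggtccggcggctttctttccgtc
MRPL17 (chr11:6683349-6683408, minus strand): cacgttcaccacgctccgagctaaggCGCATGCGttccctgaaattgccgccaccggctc
MRPS9 (chr2:105038004-105038063, plus strand): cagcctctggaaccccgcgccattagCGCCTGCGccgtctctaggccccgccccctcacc
The same 7 letters thus lie close to the start in members that were higher and in members that did not pass, and a match by letters describes the window only.

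Large-subunit names gave 28 members higher, none lower and 18 not past the threshold, with a median log2 fold change of 0.21 (46 tested). Of all genes tested, 26.8% were higher and 25.9% lower. Members of the large subunit that are specific to mitochondria, counted by ribosome structure, had a median of 0.24 with 14 of 19 higher. MRPS18A was counted among them. Large-subunit members with a bacterial homolog had 0.14 with 15 of 29 higher. In the small subunit the medians stood in the other order, with 0.11 and 5 of 10 higher for mitochondria-specific members, MRPS18B counted among them, and 0.19 with 9 of 16 higher and 1 lower for those with a bacterial homolog. These differences between the classes are a description, come from the fit without the offsets described below, and carry no test. The members with the largest rises came from both classes.

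MRPL40 and MRPL54, both mitochondria-specific components of the large subunit, rose most among members above 10 CPM. MRPL40 had 32.6, 40.3 and 42.2 CPM with UNC1999, against 26.9, 28.6 and 26.8 CPM with UNC2400. Its log2 fold change was 0.48 ± 0.08 (SE, adjusted p = 8.29e-05). UNC1999 replicate 1 was the lowest of the UNC1999 libraries but still above every UNC2400 library. MRPL54 had 40.8, 36.0 and 39.0 CPM with UNC1999, against 27.3, 29.2 and 29.4 CPM with UNC2400, a log2 fold change of 0.43 ± 0.06 (adjusted p = 2.32e-05). The ETS-type motif shown for both lies 11 and 21 bases before the start. MRPL46, another mitochondria-specific protein, had 11.2, 11.3 and 12.9 CPM with UNC1999 and 8.89, 9.75 and 8.02 CPM with UNC2400 (log2 fold change 0.40 ± 0.10, adjusted p = 0.00262). MRPL46 lies head to head with MRPS11, a small-subunit protein with a bacterial homolog, and their RefSeq windows (chr15:88467339-88467638 on the minus and chr15:88467458-88467757 on the plus strand) overlap. MRPS11, named for this position after its values were seen, was higher as well, with 51.1, 52.4 and 53.9 CPM with UNC1999 and 43.7, 46.2 and 47.0 CPM with UNC2400 (log2 fold change 0.20 ± 0.05, adjusted p = 0.00453). The groups did not overlap for any of these 4 genes.

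Of the large-subunit members counted as having bacterial homologs, MRPL33 and MRPL9 rose most. MRPL33 had 26.3, 27.8 and 28.3 CPM with UNC1999 and 20.3, 20.5 and 21.8 CPM with UNC2400, a log2 fold change of 0.40 ± 0.07 (adjusted p = 7.57e-05). MRPL9 had 57.6, 56.3 and 64.0 CPM with UNC1999 and 48.6, 44.9 and 44.2 CPM with UNC2400, a log2 fold change of 0.37 ± 0.06 (adjusted p = 7.39e-05). Neither gene's groups overlapped. In GENCODE release 29, 33.2% of the exon length of MRPL9 lies opposite genes on the other strand, among them OAZ3, and 21.1% of that of MRPL33 is shared on the same strand with BABAM2. How reads over shared exons were counted, and whether strand was used, is not given in the sources used here.

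MRPL53, which is mitochondria-specific, had the largest fold of all members at a low level. It had 2.12, 2.07 and 2.83 CPM with UNC1999 and 1.25, 1.41 and 1.33 CPM with UNC2400, from 242 counts in the UNC1999 libraries and 135 in the UNC2400 libraries, a log2 fold change of 0.81 ± 0.20 (adjusted p = 0.00249). The groups did not overlap, and without UNC1999 replicate 3, the highest library, the log2 fold change was 0.63. Of its exon length, 45.2% is shared on the same strand with CCDC142. MRPL38, MRPS24 and MRPL30, chosen after their values were seen, had few counts too and also share exons with other genes on their strand (37.5%, 23.2% and 19.5% of exon length). MRPL38 had 1.36, 2.22 and 1.77 CPM with UNC1999 against 1.35, 1.56 and 1.23 CPM with UNC2400 and did not pass (log2 fold change 0.36, 95% interval −0.10 to 0.82). MRPS24 had 0.174, 0.483 and 0.177 CPM with UNC1999 against 0.590, 0.527 and 0.365 CPM with UNC2400. Its log2 fold change was −0.82 (95% interval −1.72 to 0.09, adjusted p = 0.12), and without UNC1999 replicate 2 it was −1.49 (adjusted p = 0.0169). MRPL30 had 2 counts with UNC1999 and 5 with UNC2400 and was not tested. MRPL12 shares 68.2% of its exon length in the same way, with 47.7 CPM or more in each library.

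The factor-binding stalk recruits translation factors to the large subunit. MRPL10, its base protein, had 123, 131 and 136 CPM with UNC1999 and 105, 103 and 104 CPM with UNC2400, a log2 fold change of 0.32 ± 0.05 (adjusted p = 5.47e-05). MRPL12, which forms the mobile arms, had 58.3, 53.4 and 58.0 CPM with UNC1999 and 48.1, 50.03 and 47.7 CPM with UNC2400, a log2 fold change of 0.22 ± 0.05 (adjusted p = 0.00271). MRPL11, at the foot of the stalk, had 99.6, 91.1 and 97.4 CPM with UNC1999 and 93.2, 101 and 94.4 CPM with UNC2400, with overlapping groups and a fold of 0.998 (95% interval of the log2 fold change −0.11 to 0.11). MRPL1, which forms the L1 stalk on the side where tRNAs leave, was higher by 0.25 ± 0.05 on the log2 scale (adjusted p = 0.000663). Without offsets for gene properties, the arms and the base of the factor stalk were thus higher, and an interval around no change was found for its foot. With the offsets for span, exon length and GC content described below, none of these 3 passed. MRPL10 was then at 0.09, MRPL12 at 0.08 and MRPL11 at −0.06, and MRPL1 stayed higher at 0.31.

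Around the peptidyl transferase center, 2 of 5 members were higher, beside 26.8% of all genes tested. MRPL2, which lies beside the catalytic RNA, had 74.3, 72.7 and 72.7 CPM with UNC1999 and 62.8, 63.5 and 62.0 CPM with UNC2400 (log2 fold change 0.22 ± 0.05, adjusted p = 0.00092). MRPL27, whose bacterial homolog reaches toward the center, had 57.5, 55.8 and 59.8 CPM with UNC1999 and 48.9, 51.6 and 46.3 CPM with UNC2400 (log2 fold change 0.24 ± 0.06, adjusted p = 0.00181). MRPL3, MRPL4 and MRPL16 did not pass. MRPL3 was among the 2 large-subunit members with the highest mean CPM that did not pass, with 268, 236 and 254 CPM with UNC1999 and 247, 256 and 263 CPM with UNC2400 (log2 fold change −0.02, 95% interval −0.13 to 0.10). The second was MRPL37, a mitochondria-specific protein, with 164, 150 and 168 CPM with UNC1999 and 149, 154 and 153 CPM with UNC2400 (log2 fold change 0.08, 95% interval −0.03 to 0.19). MRPL16 had a log2 fold change of 0.02 (95% interval −0.08 to 0.13) and MRPL4 one of 0.11 ± 0.06 (adjusted p = 0.0937). With the same offsets, MRPL2 and MRPL27 did not pass, and MRPL16 was lower at −0.26 (adjusted p = 0.000482).

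At the exit of the polypeptide tunnel, 3 of 4 members were higher, beside 26.8% of all genes tested. MRPL45, which holds the ribosome at the inner membrane, had 83.1, 80.7 and 93.1 CPM with UNC1999 and 66.9, 71.0 and 70.6 CPM with UNC2400, a log2 fold change of 0.30 ± 0.06 (adjusted p = 0.000341). MRPL24 was higher by 0.30 ± 0.07 (adjusted p = 0.000923) and MRPL22 by 0.23 ± 0.06 (adjusted p = 0.00243), both homologs of bacterial tunnel-exit proteins. The groups did not overlap for these 3. MRPL23, their neighbor at the exit, had 57.0, 50.3 and 53.2 CPM with UNC1999 and 51.4, 56.9 and 52.8 CPM with UNC2400, an overlap with a log2 fold change of −0.01 (95% interval −0.13 to 0.12). MRPL17, also near the exit in bacteria and named after its values were seen, had 73.8, 64.4 and 73.2 CPM with UNC1999, all below the 76.0, 77.9 and 74.5 CPM with UNC2400. Its log2 fold change of −0.11 ± 0.06 did not pass (adjusted p = 0.108), and without UNC1999 replicate 1 it was −0.17 (adjusted p = 0.0102). The NRF1 core shown for MRPL17 begins 42 bases before its start. With the same offsets, MRPL45 (0.19) and MRPL22 (0.14) stayed higher, and MRPL24 (0.05) did not pass.

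**Figure D2:**
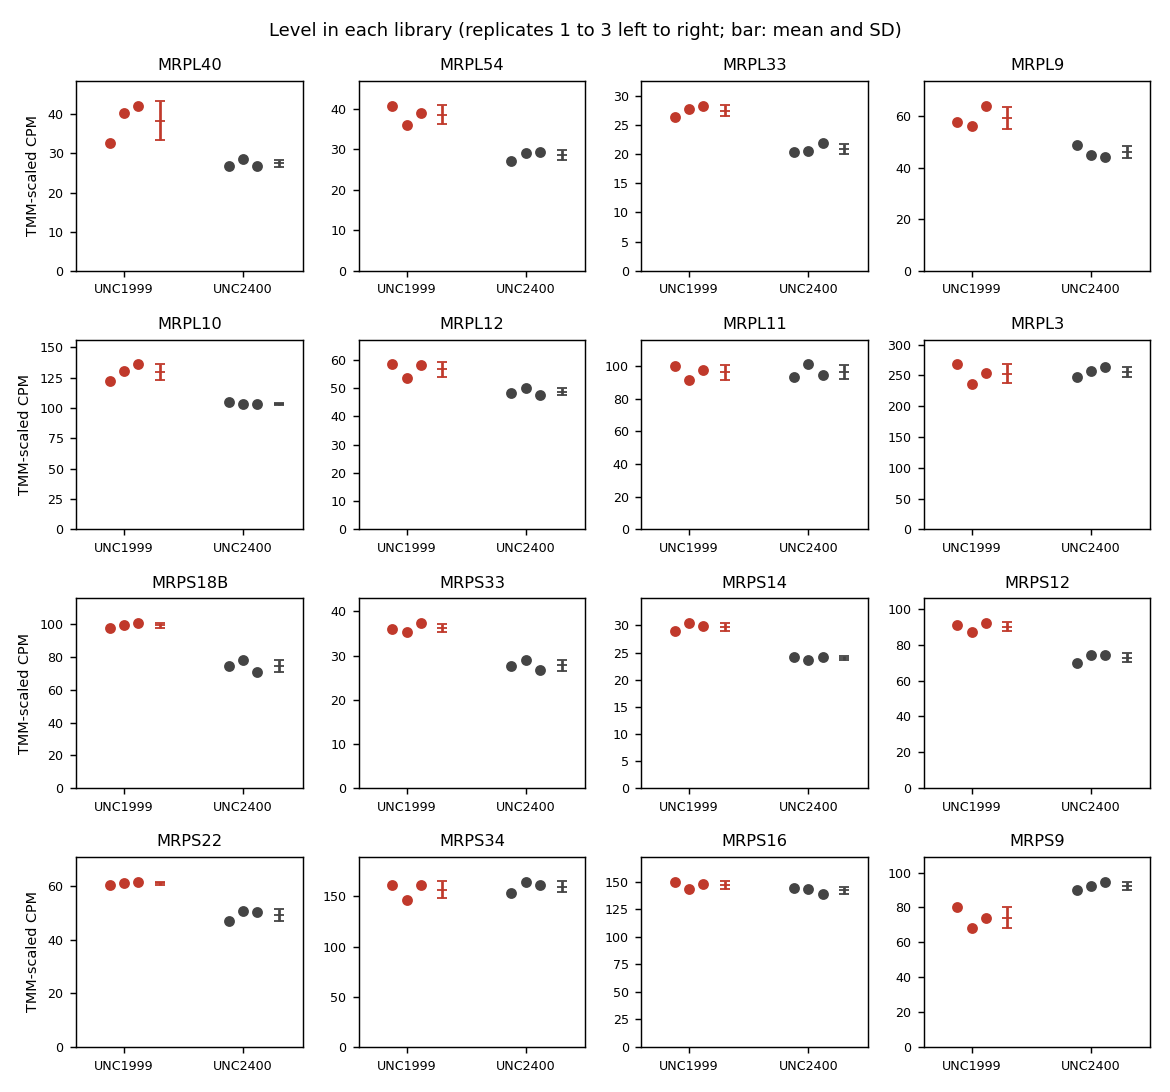
TMM-scaled CPM (vertical axis, starting at 0) of 16 members in the 3 UNC1999 libraries (red, left) and the 3 UNC2400 libraries (gray, right), with mean and SD beside the points. The groups overlap for MRPL11, MRPL3, MRPS34 and MRPS16, MRPS9 lies lower with UNC1999, and the other members lie higher without overlap.

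Small-subunit names gave 15 members higher, 1 lower and 13 not past the threshold, with a median log2 fold change of 0.18 (29 tested). The shares over all genes tested were 26.8% higher and 25.9% lower. By ribosome structure, MRPS30 and MRPS18A belong to the large subunit, and MRPS36 is a subunit of the α-ketoglutarate dehydrogenase complex. Counted that way the large subunit had 29 of 48 higher and none lower (median 0.21), and the small subunit 14 of 26 higher and 1 lower (median 0.18). MRPS36 had a log2 fold change of 0.09 (95% interval −0.05 to 0.23) and MRPS30 one of 0.09 (95% interval −0.02 to 0.19); neither passed.

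MRPS18B had the smallest adjusted p of all members. It had 97.8, 99.9 and 101 CPM with UNC1999 and 74.3, 78.4 and 70.9 CPM with UNC2400, a log2 fold change of 0.42 ± 0.05 (adjusted p = 4.42e-06). MRPS18A, MRPS18B and MRPS18C descend from the bacterial S18 gene; MRPS18C keeps the place of S18 in the small subunit, and the others sit elsewhere on the ribosome. All 3 were higher without overlap. Among all genes tested, 26.8% were called higher and 30.9% lay higher without overlap. MRPS18C had a log2 fold change of 0.24 ± 0.06 (adjusted p = 0.00359) and MRPS18A one of 0.23 ± 0.06 (adjusted p = 0.00675), which without UNC1999 replicate 3 was 0.18 (adjusted p = 0.061). On the other strand, 40.2% of the exon length of MRPS18C and 47.0% of that of MRPS18A lies opposite other genes. With the same offsets, MRPS18B stayed higher at 0.18, and MRPS18C (0.06) and MRPS18A (0.14) did not pass.

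MRPS33, a mitochondria-specific protein, had 36.0, 35.4 and 37.3 CPM with UNC1999 and 27.6, 29.02 and 26.7 CPM with UNC2400 (log2 fold change 0.38 ± 0.06, adjusted p = 4.38e-05). The members of the decoding region, the head and the platform, MRPS2, MRPS5, MRPS7 and MRPS12, were all higher, beside 26.8% of all genes tested. MRPS12, at the decoding site, had 91.0, 87.0 and 92.0 CPM with UNC1999 and 69.8, 74.1 and 74.1 CPM with UNC2400 (log2 fold change 0.31 ± 0.05, adjusted p = 7.23e-05). The groups did not overlap for either gene. MRPS2 was higher by 0.28 ± 0.05 (adjusted p = 0.000172), MRPS5 by 0.21 ± 0.05 (adjusted p = 0.00162) and MRPS7 by 0.20 ± 0.05 (adjusted p = 0.00384) on the log2 scale. For MRPS7 the value without UNC1999 replicate 3 was 0.16 (adjusted p = 0.0559). With the offsets for span, exon length and GC content described below, MRPS5 stayed higher at 0.26. MRPS2 (0.09), MRPS12 (0.06) and MRPS7 (−0.09) did not pass with them. MRPS26, a mitochondria-specific protein whose promoter stretch is shown, had 85.9, 90.0 and 92.7 CPM with UNC1999 and 71.5, 73.7 and 74.6 CPM with UNC2400 (log2 fold change 0.29 ± 0.05, adjusted p = 0.00013).

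MRPS9 went the other way. It is the homolog of the bacterial head protein S9, whose tail reaches the tRNA in the peptidyl site. It had 80.3, 68.3 and 73.7 CPM with UNC1999, all below the 89.9, 92.4 and 94.7 CPM with UNC2400. The log2 fold change was −0.32 ± 0.06 (adjusted p = 0.000222). MRPS9 was called lower in each of the 16 alternative fits as well. Among the small-subunit members with the highest mean CPM that did not pass, MRPS34, a mitochondria-specific protein, had 162, 147 and 161 CPM with UNC1999 and 153, 164 and 161 CPM with UNC2400. MRPS16, a bacterial homolog, had 150, 144 and 149 CPM with UNC1999 and 144, 144 and 139 CPM with UNC2400. Their log2 fold changes were −0.03 (95% interval −0.14 to 0.08) and 0.05 (95% interval −0.05 to 0.15), with overlapping groups, and the stretch shown for MRPS34 holds the ETS-type motif more than once. MRPS27, a pentatricopeptide repeat protein that binds RNA, had a log2 fold change of −0.09 (95% interval −0.20 to 0.02), and without UNC1999 replicate 1 it was −0.15 (adjusted p = 0.0141).

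Variants in some of these genes are known to cause recessive mitochondrial disease through failed mitochondrial translation. Of 11 such members on a fixed list, 7 were higher and none lower, beside 26.8% and 25.9% of all genes tested. With the offsets for span, exon length and GC content described below, 1 was higher (MRPS22) and 3 were lower. The lower ones were MRPS16, MRPS34 and MRPS25, the last at −0.21 with an adjusted p of 0.0104. With these offsets 24.0% of all genes tested were higher and 25.1% lower. MRPL44 was higher by 0.27 ± 0.06 (adjusted p = 0.000809), MRPS14 by 0.31 ± 0.06 (adjusted p = 0.000372) and MRPS22 by 0.31 ± 0.05 (adjusted p = 0.0001) on the log2 scale. MRPS22 had 60.5, 61.1 and 61.5 CPM with UNC1999 and 46.8, 50.7 and 50.4 CPM with UNC2400. MRPL12, MRPS2 and MRPS7 are given above, and MRPS23 was higher by 0.19 ± 0.06 (adjusted p = 0.00945). For MRPS23 the value without UNC1999 replicate 3 was 0.12 (adjusted p = 0.128) and without UNC2400 replicate 1 it was 0.17 (adjusted p = 0.0552). MRPL3, MRPS16, MRPS34 and MRPS25 did not pass; MRPS25 had a log2 fold change of −0.10 (95% interval −0.23 to 0.04), and without UNC1999 replicate 1 it was −0.14 (adjusted p = 0.0431).

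The direction of change went with gene length across all genes. Genes were placed in 5 bins of equal size by genomic span. In the bin of the shortest spans, up to 9146 bases, the median log2 fold change was 0.21 and 42.4% of genes were higher and 8.86% lower. In the longest bin the median was −0.28, with 9.74% higher and 54.4% lower. Members are short genes, with a median span of 12370 bases against 31242 for all genes with a span (84.3% of those tested). The shortest bin held 33 members, 23 of them higher and none lower, with a median of 0.24 beside 0.21 for all genes there. The next bin held 20 members, 13 higher and none lower, with a median of 0.18 beside 0.11. Of all genes in that bin, 37.4% were higher and 15.6% lower. Of the 10 members in the third bin 2 were higher, with a median of 0.03 beside 0.01 and 28.1% higher for all genes there. Of the 8 in the next bin 3 were higher and 1, MRPS9 with a span of 61978 bases, was lower, with a median of −0.02 beside −0.08 and 20.0% higher for all genes. The longest bin held 4 members, MRPL33, MRPS22, MRPS27 and MRPS28, of which 2 were higher and none lower, with a median of 0.24 beside the −0.28 of all genes there. MRPS28, at 0.17, did not pass without the offsets described below and was higher with them, at 0.26 (adjusted p = 0.00962). Spearman's correlation of log2 fold change with span was −0.29 across the 75 members and −0.39 across all genes, given as a description over genes that share the same libraries.

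**Figure D3:**
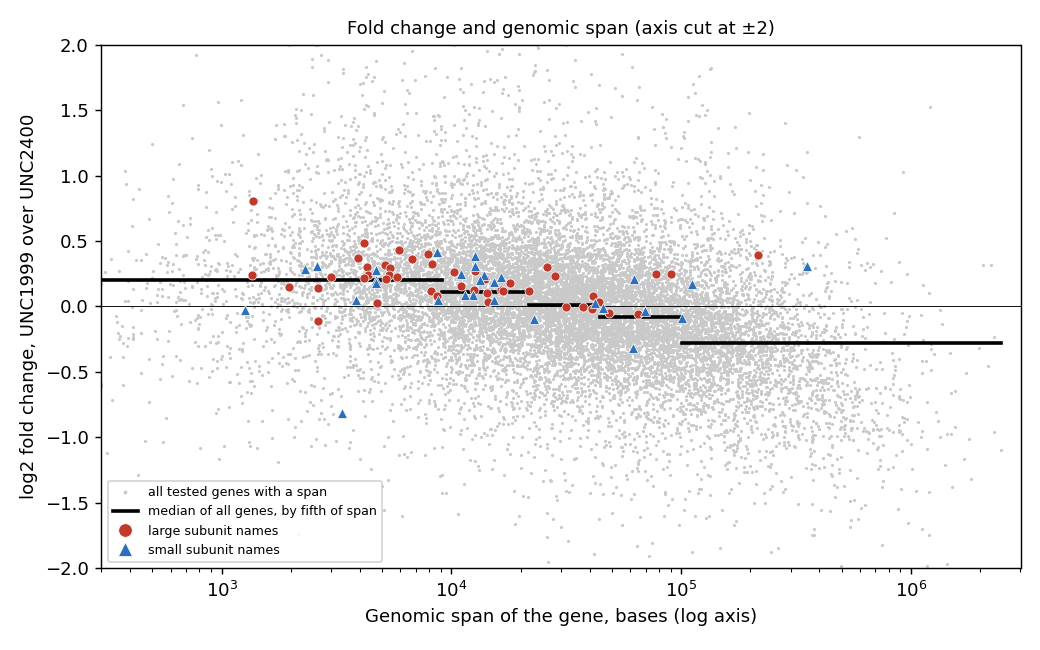
Log2 fold change of UNC1999 over UNC2400 (vertical axis, cut at ±2) against genomic span in bases (log axis) for tested genes with a span (gray), large-subunit names (red circles) and small-subunit names (blue triangles); black lines are medians of all genes in 5 bins of span. The medians run from 0.21 in the shortest to −0.28 in the longest bin, and most members lie in the 2 shortest bins.

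When each library's trend with span, exon length and GC content was taken out by offsets, the counts evened out. Then 13 members were higher and 13 lower, with a median of 0.01, against 24.0% and 25.1% of all genes. Of the 43 members called higher without offsets, 12 kept the call, and 2, MRPS17 and MRPL51, were called lower. Large-subunit names had 8 higher and 5 lower, small-subunit names 5 higher and 8 lower. MRPL40, MRPL54, MRPL33, MRPL53, MRPS18B, MRPS33, MRPS5, MRPS22, MRPL1, MRPL22, MRPL45 and MRPL48 stayed higher, and MRPS9 stayed lower with the log2 fold change at −0.32. MRPL33 and MRPS22 moved up to 0.62 and 0.66; their spans of 216371 and 351418 bases are those of the outermost annotated transcripts. MRPS34 and MRPS16, which did not pass without offsets, were lower with them, at −0.20 (adjusted p = 0.00962) and −0.28 (adjusted p = 0.00027). MRPL17 was at −0.45 (adjusted p = 1.31e-05). The offsets remove whatever varies with these properties, and its source was not tested.

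**Figure D4:**
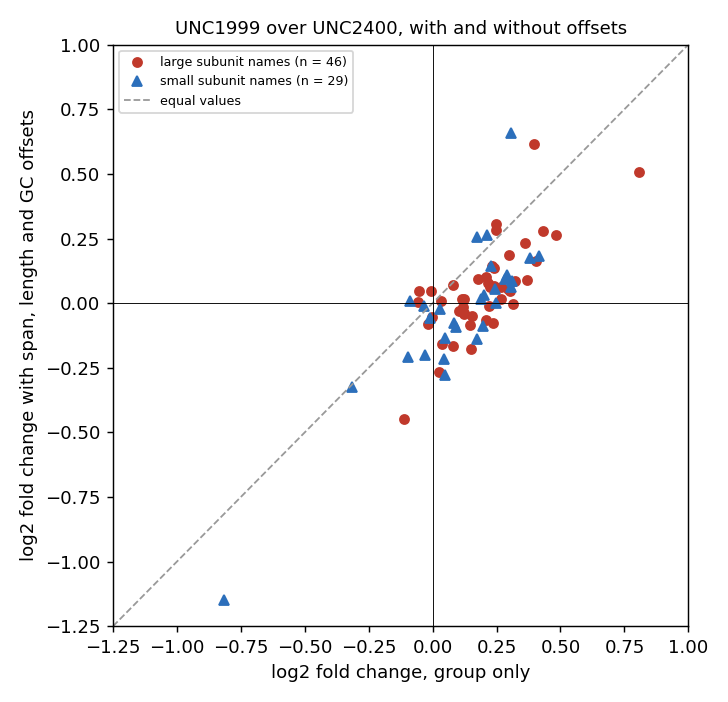
Log2 fold change of UNC1999 over UNC2400 per member, with group as the only term (horizontal axis) and after offsets for gene properties (span, exon length, GC content; vertical axis); the dashed line marks equal values. Most large-subunit (red circles) and small-subunit (blue triangles) names lie below the line, with MRPS22 and MRPL33 far above it and MRPS9 on it.

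Other nuclear genes of the same pathway had calls in both directions, as had all genes tested (26.8% higher and 25.9% lower). Among 7 mitochondrial ribosome proteins with names outside the rule, 3 were higher and none lower (median 0.10). ICT1, a peptidyl-tRNA hydrolase built into the large subunit, MRP63 and GADD45GIP1 were higher by 0.17 ± 0.06, 0.19 ± 0.07 and 0.14 ± 0.05 on the log2 scale (adjusted p = 0.0212, 0.0271 and 0.0268). None of the 3 passed without UNC1999 replicate 3 (adjusted p = 0.0746, 0.206 and 0.184) or without UNC2400 replicate 1 (0.138, 0.149 and 0.114). Of 16 factors of mitochondrial translation 8 (50%) were higher and 3 (18.8%) lower (median 0.14), a smaller share lower than over all genes. MTIF2, the initiation factor, had 103, 100 and 104 CPM with UNC1999 and 79.6, 78.7 and 76.9 CPM with UNC2400, a log2 fold change of 0.38 ± 0.05 (adjusted p = 4.72e-06). LRPPRC, which stabilizes mitochondrial mRNAs, had 531, 425 and 461 CPM with UNC1999 and 642, 673 and 692 CPM with UNC2400, a log2 fold change of −0.50 ± 0.07 (adjusted p = 1.51e-05). GUF1, a ribosome-bound GTPase, was lower at −0.37 ± 0.06 (adjusted p = 3.97e-05), and GFM2, a ribosome recycling factor named after its values were seen, completed the lower calls at −0.24 ± 0.06 (adjusted p = 0.002). The groups did not overlap for these 4.

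Of 25 factors that assemble the mitochondrial ribosome, 14 (56%) were higher and 4 (16%) lower (median 0.20). Of all genes tested, 26.8% were higher and 25.9% lower. The rRNA methyltransferases MRM1 and FTSJ2 (also MRM2) and the GTPase GTPBP5 (also MTG2) had the smallest p. FTSJ2 had 74.9, 81.8 and 82.6 CPM with UNC1999 and 58.0, 57.0 and 54.6 CPM with UNC2400 (log2 fold change 0.50 ± 0.05, adjusted p = 1.11e-06). MRM1 was higher by 0.53 ± 0.07 (adjusted p = 4.55e-06) and GTPBP5 by 0.50 ± 0.07 (adjusted p = 9.42e-06). The 4 lower were TFB1M (−0.46 ± 0.09), which dimethylates the small rRNA, RBFA (−0.31 ± 0.11), METTL15 (−0.17 ± 0.06) and MPV17L2 (−0.14 ± 0.06), named after their values were seen. Of 5 genes of mitochondrial transcription, MTERF (0.30 ± 0.07) and TEFM (0.22 ± 0.07) were higher and 3 did not pass, and of 9 regulators of mitochondrial gene expression 5 were higher. ESRRA, MYC and PPRC1 led these at 0.28 ± 0.05, 0.23 ± 0.05 and 0.17 ± 0.05. The GABP subunit genes GABPA and GABPB1, whose motif was searched above, were each at 0.15 ± 0.05 (adjusted p = 0.0301 and 0.0266). NRF1 and YY1, whose motifs were searched as well, did not pass, at 0.06 and 0.02 (adjusted p = 0.44 and 0.697). Neither GABP gene passed without UNC2400 replicate 1 (adjusted p = 0.156 for both) or without any one of the UNC1999 libraries (0.0526 to 0.0924). RBFA and TEFM did not pass without UNC2400 replicate 1 (adjusted p = 0.0958 and 0.103), METTL15 without UNC1999 replicate 2 (0.116), MPV17L2 without UNC2400 replicate 2 (0.156) and PPRC1 without UNC1999 replicate 3 (0.0866). Cytosolic ribosomal protein genes had 77 of 86 tested members higher and none lower (median 0.27), and with the offsets 18 higher and 4 lower (median 0.04).

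Most transcripts of the mitochondrial genome itself did not pass. Of 13 mRNAs 2 (15.4%) were higher and 1 (7.69%) lower (median 0.09), and neither rRNA passed. Both shares were below the 26.8% and 25.9% of all genes tested. MT-CO2 had 4525, 4887 and 4761 CPM with UNC1999 and 4365, 3542 and 2863 CPM with UNC2400 (log2 fold change 0.40 ± 0.11, adjusted p = 0.00464). MT-CYB was also higher at 0.40 ± 0.11 (adjusted p = 0.00795). MT-ND1 had 2296, 2250.4 and 2103 CPM with UNC1999 and 3876, 2718 and 2281 CPM with UNC2400 (log2 fold change −0.42 ± 0.13, adjusted p = 0.0107). The groups overlapped for MT-CYB and MT-ND1, and the UNC2400 libraries were far apart. In DESeq2 none of the 3 passed (adjusted p = 0.0606, 0.108 and 0.125). MT-CYB did not pass without UNC2400 replicate 3 (adjusted p = 0.0642), nor MT-ND1 without UNC2400 replicate 1 (0.0872). Mitochondrial mRNAs took 4.26% ± 0.255 of counts with UNC1999 and 3.69% ± 0.942 with UNC2400 (SD, n = 3 each), so the difference was smaller than the spread within UNC2400. Between 1 and 11 of the 13 were called higher when single libraries were left out, 11 of them without UNC2400 replicate 1.

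**Figure D5:**
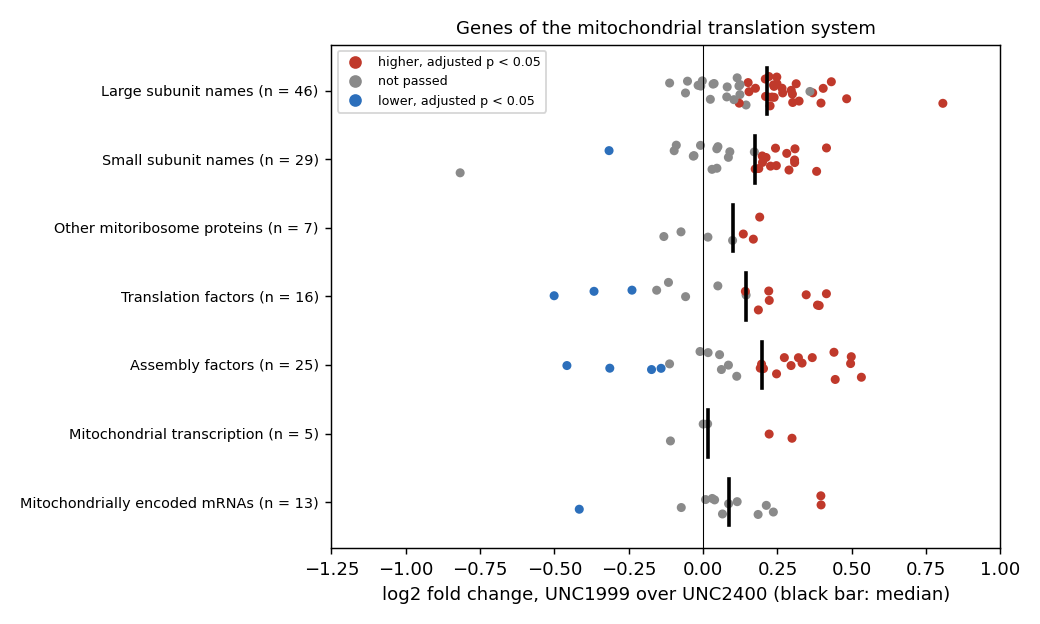
Log2 fold change of UNC1999 over UNC2400 (horizontal axis) of each tested gene in 7 groups of the mitochondrial translation system; color gives the call and black bars the medians. Members and assembly factors have medians near 0.20, while translation factors, assembly factors and mitochondrially encoded mRNAs hold calls in both directions.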

How the data were processed

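The deposited count table holds raw whole-number counts per gene name, which the authors did not normalize; its label says that duplicates were taken out, but not what they were duplicates of. The submitters' processing notes list, with neither roles nor order, Trim Galore 0.4.0, TopHat2 2.0.13, Subread 1.5.0, featureCounts and the genome build hg19. A second table by the authors gives log2 values described as normalized and batch-corrected. Per the file headers, the authors' own comparison has columns for the log2 fold change, the p-value and test scores. Nothing in the labels says that replicates came from separate cultures; the spread behind each p-value may thus be technical.

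The main test was edgeR's two-sided quasi-likelihood test on the counts (edgeR 4.0.16, R 4.3.3) with TMM factors, the default low-count filter and group as the only term, with Benjamini-Hochberg adjustment over the 17596 genes tested; the procedure was tested on simulated data. Levels are TMM-scaled CPM, which are not scaled for gene length. Rankings and cutoffs by CPM and the ratio of large to small sums therefore also depend on gene length. Gene properties (span, exon length, GC content) were read from GENCODE release 29, whose build differs from hg19, and no coordinates were taken from it. The offsets were fitted per library as smooth functions of these properties. Alternatives used RLE and upper-quartile factors, other low-count filters, DESeq2 1.42.0, limma-voom and limma 3.58.1 on the authors' log2 values, a term for replicate number, the offsets, and each library left out in turn. Members, gene lists and motifs were chosen with earlier results of these data known. Genes were named by rule: members with a set role, the largest changes past the threshold without overlap (up to 6 large-subunit and 4 small-subunit names in each direction), the 2 per subunit with the highest mean CPM that did not pass, and up to 3 genes per other list with the smallest p. MRPS11, MRPS17, MRPS26, MRPL48, MRPL51, MRPL17, MRPL38, MRPS24, MRPS28 and MRPL30 were added after their values were seen. Names of 66 MRPL and MRPS pseudogenes held 0.0501% as many counts as the members and were not counted among them.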

Additional observations from a re-analysis of the deposited data

How the results depend on the processing

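The number of members called higher stayed between 38 and 49 under each change of scaling, filter and tool, the offsets apart. With RLE factors 42 members were higher, with upper-quartile factors 45, without the low-count filter 38, with at least 1 CPM in 3 libraries 45, with DESeq2 41, with limma-voom 43 and with limma on the authors' log2 values 49. Over all 17596 genes tested, 4498 were higher with RLE factors, 4926 with upper-quartile factors, 4057 with DESeq2 and 4669 with limma-voom. The totals were 4304 of 36090 without the low-count filter, 4498 of 14646 with at least 1 CPM and 6345 of 20368 on the authors' values. In these and the fits below without offsets, 31 of the 43 higher calls were kept throughout. Leaving out single libraries gave 31 to 44 members higher and 1 to 4 lower (0 to 1 lower among large-subunit and 1 to 3 among small-subunit names, with a small-subunit median of 0.12 to 0.20). Over all genes, the fits with a library left out called 3642 to 4925 higher and 3951 to 5151 lower, of 17815 to 18176 tested. Limma on the authors' log2 values called 3 members lower, all small-subunit names. The sources used here do not give the cultures behind the libraries, the strand setting or the treatment of reads over shared exons. With 3 libraries a group, the spread between libraries limits what single members can show.

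Same-numbered libraries correlated in their deviations from the group means at 0.0237, 0.0839 and 0.124, so the numbers were not taken as pairs. A replicate block gave 43 members higher and 1 lower, and 4867 and 4695 of all genes against 4714 and 4554 without it. Each UNC1999 library correlated best with the UNC2400 library of its own number, but UNC2400 replicate 1 correlated better with UNC1999 replicate 2 (0.0618); this is a hint from the data and not from the design.

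With the span, exon length and GC offsets, 13 members were higher and 13 lower (median 0.015), and 14 and 13 with the block (median 0.014). Large-subunit names had 8 higher and 5 lower (median 0.048), and 9 and 5 with the block (0.048). Small-subunit names had 5 higher and 8 lower with or without the block (median 0.0017 and, with the block, 0.0011). The source of these shifts was not tested.

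The offsets turned the sign of 26 of the 75 members tested, with or without the block. Among the members singled out in the text with values of their own these were, without and with the block, MRPS30 (−0.079 and −0.080), MRPS36 (−0.093 and −0.097), MRPL2 (−0.012 and −0.013), MRPL16 (−0.26 and −0.27), MRPL27 (−0.077 and −0.078), MRPL23 (0.049 and 0.048), MRPS7 (−0.090 and −0.092), MRPS16 (−0.28 and −0.28), MRPS27 (0.0082 and 0.0079), MRPL51 (−0.18 and −0.18) and MRPS17 (−0.14 and −0.14). Among other genes they turned the sign of GADD45GIP1 (−0.070 and −0.070), METTL15 (0.25 and 0.25), TEFM (−0.014 and −0.012) and MYC (−0.015 and −0.015). Members close to zero also changed sign elsewhere: MRPL11 was at 0.012 with upper-quartile factors, 0.0022 with at least 1 CPM and 0.0062 on the authors' values, and MRPL23 was at 0.0063 with upper-quartile factors and 0.0070 on the authors' values. Over the fits that leave out a library, MRPL11 ranged from −0.051 to 0.032, MRPL3 from −0.081 to 0.021, MRPL16 from −0.015 to 0.046, MRPL23 from −0.078 to 0.035 and MRPS34 from −0.076 to 0.0055. The cause was not tested.

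The smaller lists were less stable. Of the other mitochondrial ribosome proteins, 1 was higher without the low-count filter, 0 in DESeq2 and 0 to 3 with a library left out. In this list 1 was lower with RLE factors, at least 1 CPM, DESeq2, limma-voom, the replicate block or the authors' values, 3 with the offsets with or without the block, and 0 to 2 with a library left out. Its median was −0.090 with the offsets, −0.091 with the block added, and 0.040 to 0.16 with a library left out. Translation factors had 4 higher with the offsets and 5 with the block added, then also 5 lower, and 5 to 7 higher with a library left out; their median was −0.064 with the offsets and −0.065 with the block added. Assembly factors had 2 lower in DESeq2 and 1 to 5 with a library left out, with a median of 0.18 without the low-count filter, 0.11 with the offsets in both fits, and 0.16 to 0.21 with a library left out. Of mitochondrially encoded mRNAs, 5 were higher without the low-count filter, 4 with the replicate block, 0 in DESeq2 and with the offsets in both fits, and 1 to 11 with a library left out; 0 were lower in DESeq2, 2 with the offsets, 5 with the block added and 0 to 1 with a library left out. Their median was −0.17 with the offsets, −0.14 with the block added, and −0.10 to 0.36 with a library left out.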
